A study of Bos taurus with 15 samples.

Results

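The simple epithelial keratins KRT7, KRT8, KRT18 and KRT19 were examined in bovine blastocysts cultured with or without extracellular vesicles from the oviduct (oEVs). They were taken by gene symbol, and all 4 were among the 10832 genes of the filtered read count table (34773 genes before filtering). Each of 15 libraries came from a pool of 8 to 14 embryos produced in vitro and collected as day 7 blastocysts, with 5 libraries per treatment. Control embryos (Co) received no supplement, FeEV embryos were cultured with freshly isolated oEVs, and FoEV embryos with oEVs that had been frozen and thawed. The vesicles of both oEV treatments came from the same oviducts, at the postovulatory stage of the cycle, and were split into a fresh and a frozen part. The pools with the best RNA quality and amount were the ones chosen for sequencing. Separate cultures were not stated for every pool, so the p-values measure the spread between these pools.

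Keratins are intermediate filament proteins that assemble as obligate pairs of a type I and a type II chain. KRT7 and KRT8 are type II keratins, and KRT18 and KRT19 are type I keratins. In simple, single-layered epithelia KRT8 pairs mainly with KRT18, and KRT7 and KRT19 add to this network. In the blastocyst these keratins are known from the trophectoderm, the outer epithelium that forms the placenta, where filaments anchored at desmosomes give the cell layer mechanical strength. In the RefSeq annotation of assembly ARS-UCD2.0, KRT8 and KRT18 are neighbours on chromosome 5, with a single long non-coding RNA gene between them. KRT7 is on the same chromosome beside KRT80, and KRT19 is on chromosome 19 beside KRT15.

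The 5 Co libraries held 2571558 to 2977004 counts each, the FeEV libraries 2136713 to 3808602 and the FoEV libraries 3392613 to 4058887, so every FoEV library was deeper than every Co library. Ribosomal RNA took between 15.5% and 28.2% of the counts, with similar ranges in the 3 treatments. Of 14 trophectoderm markers, 11 were in the filtered table, with GATA3 at 192 to 256 CPM and CDX2 at 24.4 to 52.5 CPM. Of 10 markers of oviduct epithelium and 8 of cumulus cells, 2 each were in the filtered table, and OVGP1, the oviduct-specific glycoprotein, was at no more than 1.59 CPM. CPM are counts relative to the library total, scaled here by the trimmed mean of M values (TMM). Levels were compared between libraries, not between genes, since transcript lengths were not used here.

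KRT18 had the largest difference of the 4 keratins between FoEV treatment and Co, and its mean was lowest in Co, intermediate in FeEV and highest in FoEV. KRT18 (gene ID 506480), the type I partner of KRT8, was at 2932, 2367, 2645, 2247 and 3231 CPM in Co libraries 1 to 5. The FeEV libraries 1 to 5 had 2783, 2679, 3698, 2829 and 4094 CPM, and the FoEV libraries 4587, 3161, 4101, 3786 and 4012 CPM. Of the 5 FoEV libraries, 4 were above every Co library, and FoEV library 2 was below the highest Co library. The FeEV libraries spanned both ranges, with 2 of 5 above every Co library.

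The means of KRT18 were 2684 ± 404 CPM in Co, 3216 ± 638 CPM in FeEV and 3929 ± 520 CPM in FoEV (SD, n = 5 each). For FoEV treatment vs. Co the log2 fold change was 0.55 (SE 0.13, 95% interval 0.28 to 0.82), a 1.46-fold difference, with an adjusted p = 0.0818 in edgeR's quasi-likelihood test. KRT18 thus stayed outside an adjusted threshold of 0.05, which a single gene (0.00923% of those tested), the ethanolamine kinase ETNK1, passed in this comparison (named after its value was seen). At an unadjusted p under 0.05, KRT18 and KRT8 were 2 of 4 keratins past the threshold, beside 15.1% of all genes tested (8.18% higher and 6.88% lower in FoEV). For FeEV treatment vs. Co the log2 fold change of KRT18 was 0.26 (−0.01 to 0.53, adjusted p = 1.00), and for FoEV vs. FeEV treatment it was 0.29 (0.02 to 0.56, adjusted p = 0.562). With 1 library left out, the value for FeEV treatment vs. Co ranged from 0.16 (without FeEV library 5) to 0.34 (without Co library 5). All 3 comparisons share libraries and are not independent of each other.

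The call for KRT18 in FoEV treatment vs. Co depended on the test, on removing the filter, on a replicate block and on 1 library. It passed the adjusted threshold with the robust dispersion and likelihood ratio test named in the study's methods (log2 fold change 0.56, adjusted p = 0.00379), with DESeq2 (0.54, adjusted p = 0.0107), and without a filter on low counts (0.54, adjusted p = 5.72e-06). It also passed when FoEV library 2, the lowest of its treatment, was left out of the quasi-likelihood fit (0.62, adjusted p = 0.0410). Leaving out any other library gave adjusted p-values up to 0.272, and the log2 fold change stayed between 0.49 and 0.63 in all 15 cases. In the quasi-likelihood fit with the replicate numbers of the titles as a block, KRT18 passed (0.56, adjusted p = 0.0126). With a looser filter that kept 12354 genes it did not (0.54, adjusted p = 0.0918). After the counts were thinned to the smallest library total the log2 fold change was 0.54 (adjusted p = 0.0811).

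**Figure D1:**
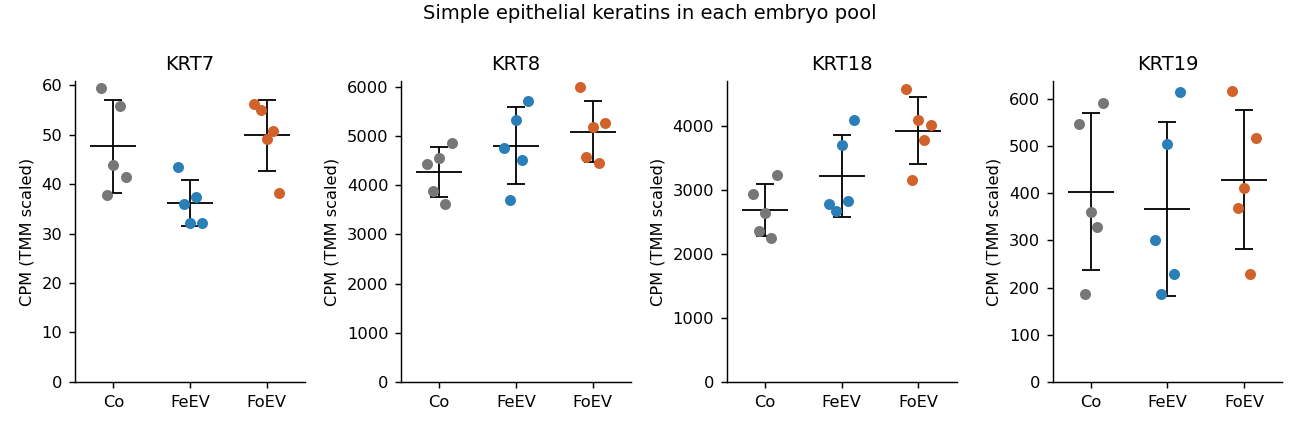
TMM-scaled CPM of KRT7, KRT8, KRT18 and KRT19 (one panel each, linear axes from 0) in the 5 libraries of Co, FeEV and FoEV. Points are libraries 1 to 5 from left to right, the horizontal mark is the mean and the bars are the SD. For KRT18, 4 of 5 FoEV libraries lie above every Co library, for KRT7 the FeEV libraries are low, and KRT19 is scattered in every treatment.

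KRT8 differed in the same direction as its partner, with a smaller size and overlapping treatments. KRT8 (gene ID 281269), the type II chain of the pair, was at 4428, 3888, 4551, 3613 and 4851 CPM in the Co libraries. The FeEV libraries had 4765, 3705, 5323, 4517 and 5719 CPM, and the FoEV libraries 5997, 4567, 5172, 4445 and 5261 CPM. In FoEV, 3 of 5 libraries were above every Co library, as were 2 of 5 FeEV libraries. Means were 4266 ± 505 CPM in Co, 4806 ± 775 CPM in FeEV and 5088 ± 622 CPM in FoEV. The log2 fold change for FoEV treatment vs. Co was 0.25 (0.02 to 0.49, adjusted p = 0.289), and the unadjusted p went above 0.05 when Co library 2 or 4 or FoEV library 1, 3 or 5 was left out. For FeEV treatment vs. Co it was 0.17 (−0.06 to 0.41, adjusted p = 1.00), and for FoEV vs. FeEV treatment 0.08 (−0.15 to 0.32, adjusted p = 0.848). With 1 library left out, these ranged from 0.10 (without FeEV library 5) to 0.25 (without FeEV library 2) and from 0.0020 (without FeEV library 2) to 0.15 (without FeEV library 5).

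The balance within the KRT8 and KRT18 pair differed between treatments, which follows from the unequal differences of the 2 genes given above. It is described here without a test because the pair was picked with these values known. Per KRT18 count there were 1.51, 1.64, 1.72, 1.61 and 1.502 KRT8 counts in Co libraries 1 to 5. The FeEV libraries had ratios of 1.71, 1.38, 1.44, 1.597 and 1.40, and the FoEV libraries 1.31, 1.44, 1.26, 1.17 and 1.31. Every FoEV library was below every Co library in this ratio, while FeEV overlapped both. The share of other gene pairs without overlap is not given here, so this separation cannot be called unusual. Mean ratios were 1.597 ± 0.0923 in Co, 1.51 ± 0.143 in FeEV and 1.30 ± 0.0981 in FoEV, and the mean log2 ratio of FoEV minus that of Co was −0.30. Within the counts on the 4 keratins, KRT18 accounted for 36.2% ± 0.896 in Co, 38.2% ± 2.02 in FeEV and 41.4% ± 2.103 in FoEV. The share of KRT8 was 57.8% ± 2.16, 57.2% ± 2.47 and 53.6% ± 1.42, respectively. Read counts depend on transcript length, so these ratios compare libraries and do not give the numbers of molecules of each chain.

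KRT7 had the largest difference of the 4 keratins between the oEV treatments, with low values in FeEV. KRT7 (gene ID 535697), a type II keratin of glandular and ductal simple epithelia, was at 59.4, 37.8, 43.9, 55.8 and 41.4 CPM in the Co libraries. In FeEV it was at 43.5, 36.0, 32.2, 37.3 and 32.1 CPM, and in FoEV at 56.3, 55.0, 49.0, 50.7 and 38.2 CPM. Of the FeEV libraries, 4 of 5 were below every Co library, and 4 of 5 FoEV libraries were above every FeEV library. Means were 47.7 ± 9.42 CPM in Co, 36.2 ± 4.67 CPM in FeEV and 49.8 ± 7.17 CPM in FoEV.

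For FeEV treatment vs. Co the log2 fold change of KRT7 was −0.39 (−0.69 to −0.10, adjusted p = 1.00), the only 1 of 4 keratins at an unadjusted p under 0.05, beside 4.15% of all genes tested (1.83% higher and 2.32% lower in FeEV). Under other settings KRT8 and KRT18 also had an unadjusted p under 0.05 in that comparison (without a filter, or with title numbers as a block), and KRT7 did not with description numbers as a block. For FoEV vs. FeEV treatment it was 0.46 (0.17 to 0.75, adjusted p = 0.453), and here KRT7 and KRT18 made 2 of 4 keratins at an unadjusted p under 0.05, beside 8.52% of all genes (4.83% higher and 3.69% lower in FoEV). No gene (0%) had an adjusted p under 0.05 in either of these comparisons with the quasi-likelihood test (449 and 923 genes at an unadjusted p under 0.05), against 6 and 31 with the likelihood ratio test and 1 and 3 with DESeq2. For FoEV treatment vs. Co the value of KRT7 was 0.07 (−0.22 to 0.35, adjusted p = 0.845). KRT7 rested on 82 to 243 counts per library, and its counting error alone was 11.04% at the lowest count, against 1.34% for KRT18.

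Some single markers of other cell types also had lower values in FeEV, and others of the same lists did not. The summed oviduct epithelium markers were at 20.4 to 36.5 CPM in Co, 14.7 to 21.5 CPM in FeEV and 15.9 to 43.9 CPM in FoEV, with MUC16 at a log2 fold change of −0.88 for FeEV treatment vs. Co (adjusted p = 1.00). The defining marker OVGP1 was at or near 0, and the part of these markers in the KRT7 values was not tested. The summed cumulus cell markers overlapped, with 26.9 to 42.0 CPM in Co, 26.5 to 44.6 CPM in FeEV and 25.9 to 48.3 CPM in FoEV, and FSHR among them had −0.55 for FeEV treatment vs. Co (adjusted p = 1.00). The inner cell mass marker NANOG had −0.62 in the same comparison (adjusted p = 1.00). Above 0 there were the cumulus marker CYP19A1 (0.23) and the inner cell mass markers POU5F1 (0.13) and DPPA3 (0.04). Among the markers tested, 0 of 2 of the oviduct epithelium, 1 of 2 of cumulus cells and 2 of 7 of the inner cell mass were above 0. MUC16, FSHR and NANOG all had an unadjusted p under 0.05 there and were named after their values were seen.

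KRT19 had similar ranges in the 3 treatments and varied more among pools than the other keratins did. KRT19 (gene ID 514812), the smallest type I keratin, was at 547, 187, 360, 328 and 592 CPM in the Co libraries. In FeEV it was at 302, 187, 504, 229 and 614 CPM, and in FoEV at 616, 369, 410, 230 and 518 CPM. The highest library was 3.17, 3.28 and 2.68 times the lowest in Co, FeEV and FoEV. Means were 403 ± 166 CPM, 367 ± 184 CPM and 428 ± 147 CPM, with log2 fold changes of 0.09 (−0.76 to 0.95, adjusted p = 0.934) for FoEV treatment vs. Co, −0.13 (−0.99 to 0.73, adjusted p = 1.00) for FeEV treatment vs. Co and 0.22 (−0.64 to 1.08, adjusted p = 0.889) for FoEV vs. FeEV treatment. With 1 library left out, the value for FoEV vs. FeEV treatment ranged from 0.05 (without FoEV library 1) to 0.49 (without FeEV library 5). The intervals reach close to 1 on the log2 scale, so a difference of that size could not be told from none. The within-treatment SD of KRT19 on the log2 scale was 0.65, larger than that of 99.5% of the 3490 genes with at least 50 CPM. It was 0.23 for KRT7, 0.20 for KRT8 and 0.23 for KRT18, against a median of 0.17 over those genes. Counting error at the lowest KRT19 count was 4.46%, well below the spread between pools.

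**Figure D2:**
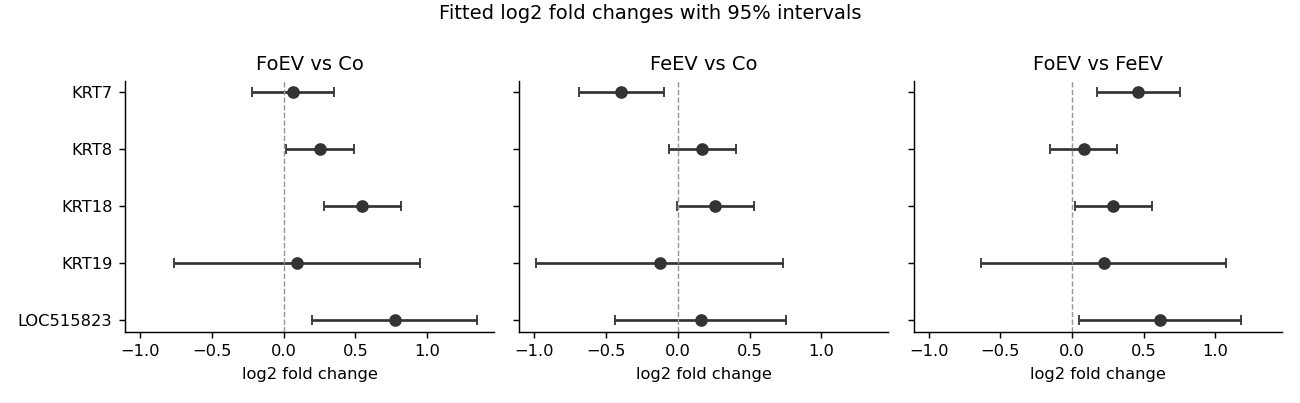
Fitted log2 fold changes (points) with 95% intervals (bars) of the 4 keratins and of LOC515823, a locus named as a KRT8 pseudogene, in the 3 comparisons. The interval of KRT18 lies above 0 for FoEV vs. Co (0.28 to 0.82), that of KRT7 below 0 for FeEV vs. Co (−0.69 to −0.10), and the intervals of KRT19 are the widest of the 4 keratins.

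Together the 4 keratins made up 0.730% ± 0.0744 of a Co library, 0.857% ± 0.157 of a FeEV library and 0.950% ± 0.168 of a FoEV library. In FoEV, 4 of 5 libraries were above the highest Co share of 0.800%, and in FeEV 3 of 5. In bulk samples, more cells of a type in a pool and more RNA of a gene per cell cannot be told apart. The summed trophectoderm markers ranged from 2945 to 3974 CPM in Co, 2720 to 4035 CPM in FeEV and 2437 to 4211 CPM in FoEV, with overlap of all 3 treatments. PTGS2 and KLF5, at means of 1771 and 752 CPM, had the highest levels of the tested markers and weigh most in this sum. Of the 11 trophectoderm markers tested in FoEV treatment vs. Co, GATA2 (log2 fold change 0.34, adjusted p = 0.276) and GATA3 (0.19, adjusted p = 0.238) were higher and KLF5 (−0.24, adjusted p = 0.143) lower at an unadjusted p under 0.05. Among 7 markers of the inner cell mass, NANOG (−0.84, adjusted p = 0.178) was lower, and among 8 of the hypoblast, FN1 (−0.29, adjusted p = 0.331). The unadjusted threshold was passed by 15.1% of all genes in this comparison. Log2 fold changes were above 0 for 8 of 11 trophectoderm markers (median 0.19, against 0.01 over all genes). They were above 0 for 2 of 7 inner cell mass markers (median −0.06) and 2 of 8 hypoblast markers (median −0.14). The part of cell composition in the keratin differences was not tested.

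A row of the table, LOC515823, is named as a KRT8 pseudogene in the supplement of the study, while the RefSeq annotation of ARS-UCD2.0 types it as protein coding. It had 48.1, 26.3, 29.7, 19.7 and 47.6 CPM in Co, 32.5, 33.1, 49.7, 20.5 and 52.5 CPM in FeEV, and 61.4, 39.1, 59.2, 77.5 and 56.2 CPM in FoEV. In FoEV, 4 of 5 libraries were above every Co and FeEV library. Its log2 fold change was 0.77 for FoEV treatment vs. Co (adjusted p = 0.206) and 0.62 for FoEV vs. FeEV treatment (adjusted p = 0.560). Relative to the KRT8 counts it stood at 0.788% ± 0.233 in Co, 0.776% ± 0.207 in FeEV and 1.17% ± 0.339 in FoEV. Reads shared by near-identical copies can be split between a gene and its copy, so the value of the copy is uncertain, and with its counts added the log2 fold change of KRT8 for FoEV treatment vs. Co was 0.26. Copies of KRT7, KRT18 and KRT19 under other names were not analysed here.

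**Figure D3:**
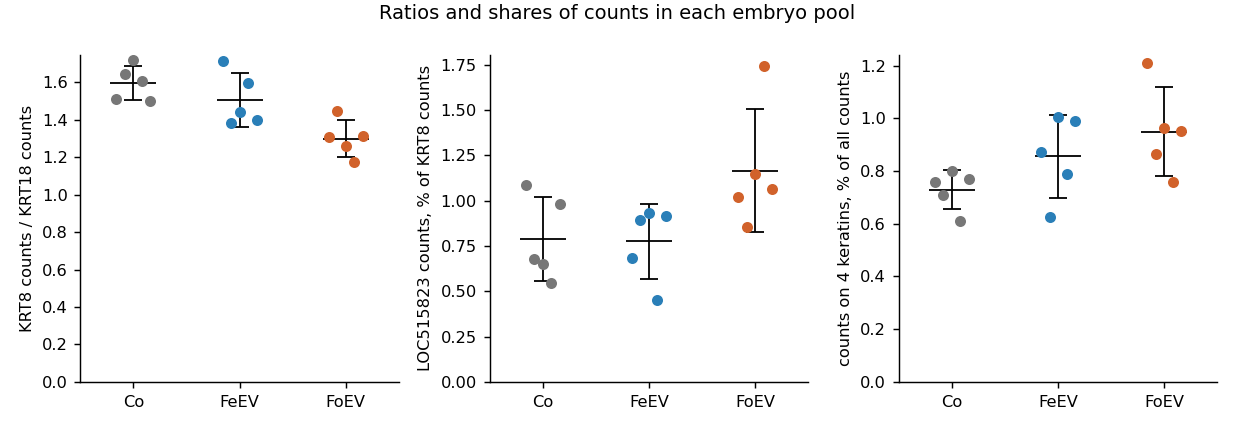
Ratio of KRT8 to KRT18 counts (left), counts of LOC515823 as a percentage of KRT8 counts (middle) and counts on the 4 keratins as a percentage of all counts (right) in each library, with mean and SD (axes from 0). All 5 FoEV libraries have a KRT8 to KRT18 ratio below every Co library, 1.17 to 1.44 against 1.502 to 1.72.

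Within treatments, KRT8, KRT18 and KRT19 moved together from pool to pool, while no relation of KRT7 with them passed the test. Deviations of log2 CPM from the treatment means were correlated over the 15 libraries for the 6 pairs of keratins, with permutation tests (two-sided, 100000 permutations within treatments) adjusted over the 6 pairs. Pearson's r was 0.880 for KRT8 and KRT18 (adjusted permutation p = 0.000810, Spearman's rho 0.904, adjusted permutation p = 0.000240). It was 0.861 for KRT8 and KRT19 (adjusted permutation p = 0.000810, rho 0.907, adjusted permutation p = 0.000240) and 0.818 for KRT18 and KRT19 (adjusted permutation p = 0.00402, rho 0.850, adjusted permutation p = 0.00166). Without the 2 libraries farthest from the median, r was 0.875, 0.894 and 0.834. For KRT7, r was −0.217 with KRT8, −0.288 with KRT18 and −0.0222 with KRT19 (adjusted permutation p = 0.469 to 0.941). With the replicate numbers of the titles as a block, none of the 6 relations passed, and those among KRT8, KRT18 and KRT19 had an adjusted permutation p of 0.182 to 0.234.

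Depth and ribosomal RNA share were set against the keratins within treatments, and no relation passed by Pearson's r. The r of the log2 total count was 0.566 with KRT8, 0.557 with KRT18 and 0.615 with KRT19 (adjusted permutation p = 0.141 to 0.230 over 8 relations), and that of the ribosomal RNA share lay between −0.240 and 0.136. By rank, rho of the log2 total count was 0.782 with KRT8 (unadjusted permutation p = 0.00297) and 0.721 with KRT19 (0.00927). It was 0.539 with KRT18 (0.0643) and −0.0429 with KRT7 (0.885). The p-values of rho were not adjusted over the 8 relations. Because every FoEV library was deeper than every Co library, depth and treatment cannot be told apart in that comparison. The part of depth in the keratin differences was not tested beyond thinning the counts. With depth and ribosomal RNA share also removed, r was 0.925, 0.832 and 0.727 for KRT8 with KRT18, KRT8 with KRT19 and KRT18 with KRT19 (adjusted permutation p at most 0.0116). This was added after the data were seen.

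**Figure D4:**
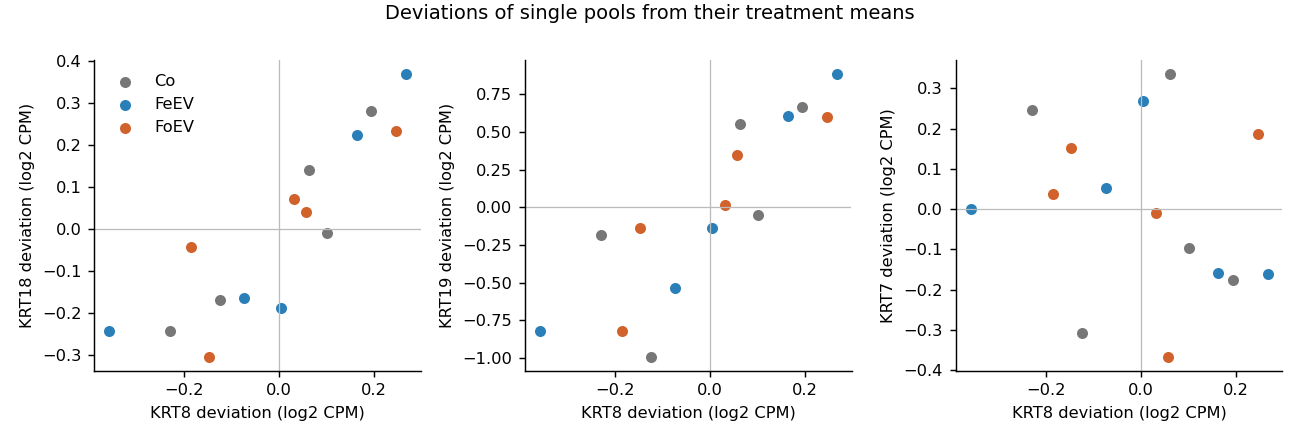
Deviations of single libraries from their treatment mean (log2 CPM) for KRT18, KRT19 and KRT7 against KRT8, coloured by treatment. Libraries with high KRT8 also have high KRT18 (r = 0.880) and KRT19 (r = 0.861), and no such order is seen for KRT7 (r = −0.217).

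Among the 3490 genes with at least 50 CPM, those whose pool-to-pool pattern was most like each keratin differed between the 4, given here as a description over 15 libraries that also share differences in depth. Most like KRT18 were EZR (r = 0.962), which links actin to the membrane of microvilli, S100A16 (0.948), GAPDH (0.938), ALAS1 (0.919) and SFN (0.918). Their log2 fold changes for FoEV treatment vs. Co lay between −0.15 (ALAS1) and 0.36 (S100A16), all below the 0.55 of KRT18. In likeness to KRT18, KRT8 was at rank 25 and KRT19 at rank 76. Most like KRT8 were ACTB (0.920), encoding cytoplasmic actin, LGALS1 (0.914), GPX4 (0.901), BIN2 (0.887) and MYL12A (0.885). KRT18 was at rank 7 and KRT19 at rank 18. Most like KRT19 were ENO1 (0.962), a glycolytic enzyme, SSLP1 (0.948), HSD3B1 (0.947), an enzyme of steroid synthesis, PPIB (0.940) and NCLN (0.937). Here KRT8 was at rank 69 and KRT18 at rank 114. For KRT7 the highest values were lower, with DUSP16 (0.798), FGFR4 (0.790), USP31 (0.726), IGF1R (0.720) and ICE1 (0.719).

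Other keratins had few counts beside the 4. Of 53 other keratin symbols in the unfiltered table, 24 had 0 counts in all libraries, 27 had counts but were removed by the filter (at most 5.91 CPM in any library), and KRT5 and KRT80 were retained. The 4 simple epithelial keratins held 99.5% of all counts on keratins. KRT5, a type II keratin of basal cells, had a mean of 25.0 CPM and a log2 fold change of 0.10 for FoEV treatment vs. Co (adjusted p = 0.940). KRT80, the neighbour of KRT7, had a mean of 8.65 CPM and a value of 0.08 (adjusted p = 0.906).

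Genes that anchor, bind or regulate keratin filaments were then counted, with the share of all genes at an unadjusted p under 0.05 (15.1% for FoEV treatment vs. Co) as background. Higher, lower and passing refer to that unadjusted threshold in these lists. The quasi-likelihood test gave no member of these lists an adjusted p under 0.05. Of 14 cytolinkers and desmosomal anchors, JUP (plakoglobin, log2 fold change 0.23, adjusted p = 0.286) and PKP3 (plakophilin 3, 0.53, adjusted p = 0.148) were higher in FoEV than in Co at an unadjusted p under 0.05 and none was lower. The abundant members DSP (desmoplakin, 0.18, adjusted p = 0.565), MACF1 (0.08, adjusted p = 0.674) and DSG2 (−0.11, adjusted p = 0.506) did not pass. The median of the list was 0.07, against 0.01 over all genes.

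Of 11 other intermediate filament genes, NEFM (0.71, adjusted p = 0.319) and PRPH (peripherin, 0.71, adjusted p = 0.214) were higher in FoEV than in Co, and both were also higher in FoEV than in FeEV (1.10, adjusted p = 0.453 and 0.54, adjusted p = 0.578). The lamins of the nuclear envelope did not pass, with 0.14 for LMNA (adjusted p = 0.640), −0.01 for LMNB1 (adjusted p = 0.960) and 0.17 for LMNB2 (adjusted p = 0.567). VIM, the filament gene of mesenchymal cells, had −1.16 (adjusted p = 0.486) and ranged from 4.39 to 29.5 CPM in Co and from 1.62 to 16.8 CPM in FoEV. The median of this list was 0.14.

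Of 16 genes for keratin binding, turnover and cleavage, 4 were higher and 1 was lower in FoEV than in Co. Among those higher were YWHAH (a 14-3-3 protein, 0.36, adjusted p = 0.0948), SQSTM1 (the p62 adaptor of protein turnover, 0.33, adjusted p = 0.153) and STUB1 (0.31, adjusted p = 0.230). The abundant members YWHAE (−0.05, adjusted p = 0.806), YWHAZ (−0.17, adjusted p = 0.366) and HSPB1 (0.11, adjusted p = 0.601) did not pass. The median of the list was −0.0043, close to the 0.01 of all genes. STUB1 was named after its value was seen.

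Of 12 transcription factors linked to simple keratin genes, none was higher and 3 were lower in FoEV than in Co, namely ETS2 (−0.53, adjusted p = 0.165), KLF5 (−0.24, adjusted p = 0.143) and FOS (−0.62, adjusted p = 0.230). Without passing, GRHL1 had 0.17 (adjusted p = 0.418) and SP1 −0.01 (adjusted p = 0.969). The median was −0.14. With 1 library left out, 2 (without Co library 5) to 5 (without Co library 2) were lower, and 1 was higher without FoEV library 5. Of the 12 factors, 4 had a log2 fold change above 0 in FoEV treatment vs. Co. The lower values of ETS2, KLF5 and FOS stood beside the higher KRT18 and KRT8 values of the same libraries. The part of these factors in the keratin values was not tested.

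In FeEV treatment vs. Co, where 4.15% of all genes had an unadjusted p under 0.05, the same 4 lists held 5 such genes of 53 tested. Among them, MACF1 was higher (0.21, adjusted p = 1.00), and ETS2 (−0.38, adjusted p = 1.00), FOS (−0.79, adjusted p = 1.00) and FOSL2 (−0.27, adjusted p = 1.00, named after its value was seen) were lower. With 1 library left out, 1 (without Co library 5 or FeEV library 5) to 4 (without Co library 2) of the transcription factors were lower. In FoEV vs. FeEV treatment, PKP3 (0.37, adjusted p = 0.552), YWHAH (0.22, adjusted p = 0.510), SQSTM1 (0.25, adjusted p = 0.538) and HSPB1 (0.25, adjusted p = 0.496) were higher beside NEFM and PRPH, none of the lists had a lower gene, and the background was 8.52%.

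**Figure D5:**
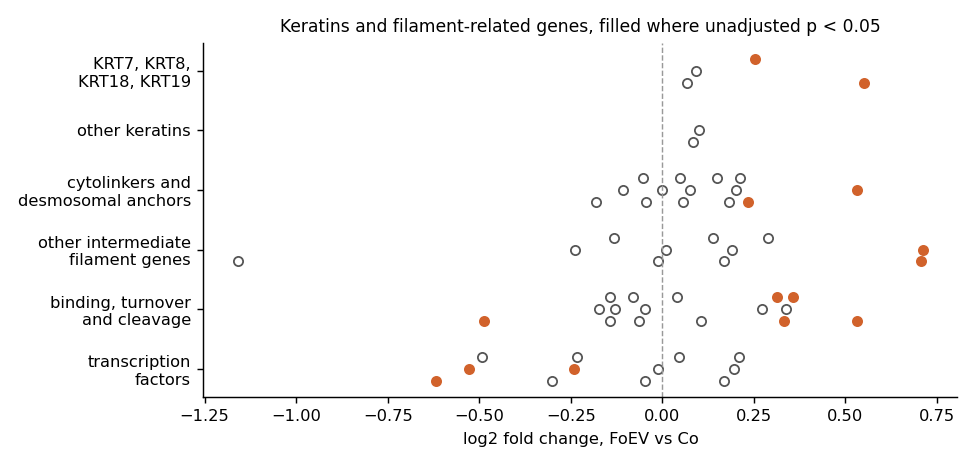
Log2 fold changes for FoEV treatment vs. Co of the 4 keratins and of the genes tested in 5 lists (rows), each point 1 gene, filled where the unadjusted p was under 0.05. KRT8 and KRT18 are filled, the other keratins sit near 0.1, and the 3 filled transcription factors are all below 0.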

How the data were processed

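Total RNA (1 ng per library) of pooled blastocysts was converted to strand-selected libraries with ribosomal RNA depletion by the authors and sequenced as single reads of 125 bases. The authors deposited raw read counts per gene, mapped to ARS-UCD1.2, with a filtered table (10832 genes) and an unfiltered table (34773 genes). The submitters' processing notes list Trim Galore 0.4.3.1, HISAT2 2.1.0 and featureCounts 1.6.3, while the methods name QuasR for counting. Counts shared by both tables were the same for all 10832 genes. The culture length is given as 7 days in the labels and as longer in the methods. Gene names matched RefSeq ARS-UCD2.0 for 10709 of 10832 genes. Its positions were used only to describe the chromosomes and neighbours of keratin genes, not for the counts.

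Counts were scaled by TMM and fitted over the 3 treatments with the quasi-likelihood test of edgeR 4.0.16 (R 4.3.3) with robust estimation and without covariates. P-values were adjusted over 10832 genes by Benjamini-Hochberg (threshold 0.05). The methods of the study use a likelihood ratio test with robust dispersion, which was run as an alternative, as was DESeq2 1.42.0. Log2 CPM used a prior count of 2. Each test was tried on simulated FoEV vs. Co counts of 10832 genes, of which 200 had a log2 change of 1. Recovery was 75.5% with 3.82% of calls false by quasi-likelihood, 85.5% with 19.7% by likelihood ratio, and 79% with 7.06% by DESeq2. Alternatives are named in the closing section.

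The keratins, gene lists and markers were chosen with earlier results of these data known. Named were the 4 keratins, copies of them, per list the 3 genes with the highest mean CPM and the 3 with the smallest p in FoEV vs. Co, and per keratin the 5 genes with the highest r. Some genes that this rule or a count would name are not reported here. Other genes of a count were named after their values were seen. No 2 libraries of a treatment agreed within sampling noise. Counting errors are the Poisson error of the lowest count and leave out variation between pools.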

Additional observations from a re-analysis of the deposited data

How the results depend on the processing

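With all libraries kept, the 4 keratins kept the direction of their log2 fold changes in all 3 comparisons and under every alternative scaling, test, filter, block and thinning tried. The adjusted call of KRT18 for FoEV vs. Co was gained with the likelihood ratio test (log2 fold change 0.56), DESeq2 (0.54), no filter (0.54) and the block on title numbers (0.56). It stayed above the threshold elsewhere (adjusted p up to 0.194). Genes with an adjusted p under 0.05 in FoEV vs. Co numbered 1, against 311 with the likelihood ratio test, 138 with DESeq2, 173 without a filter, 5 when only the 2 treatments were fitted and 6 after thinning. For FeEV vs. Co the 0 genes became 6, 1 and 13 with the likelihood ratio test, DESeq2 and no filter, and for FoEV vs. FeEV 31, 3 and 22. Without ribosomal RNA in the denominator the keratins held 0.938% of Co, 1.08% of FeEV and 1.205% of FoEV counts. Adding the counts of the copy gave KRT8 0.26 for FoEV vs. Co; for KRT18 no copy was named, so this could not be run. In FeEV vs. Co, KRT8 (log2 fold change 0.18) and KRT18 (0.27) had an unadjusted p under 0.05 without a filter, as they did with the title block (0.17 and 0.26).

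Leaving out 1 library at a time gave 0.49 to 0.63 for KRT18 in FoEV vs. Co, −0.0064 to 0.16 for KRT7 (below 0 without Co library 2), −0.089 to 0.27 for KRT19 (below 0 without Co library 2 or FoEV library 1) and, for KRT19 in FeEV vs. Co, −0.39 to 0.052 (above 0 without Co library 1 or 5 or FeEV library 2 or 4). The unadjusted p of KRT18 in FoEV vs. FeEV passed 0.05 upwards without FeEV library 1, 2 or 4 or FoEV library 1, 3 or 5, and in FeEV vs. Co downwards without Co library 1 or 5, FeEV library 1, 2 or 4 or FoEV library 2. That of KRT8 in FeEV vs. Co did so without FeEV library 2. Genes called numbered 0 to 58 in FoEV vs. Co (58 without FoEV library 2, 14 without FoEV library 3), and 0 to 1 in each of FeEV vs. Co and FoEV vs. FeEV. In FoEV vs. Co, VIM ranged from −1.91 (without FoEV library 3) to −0.74 (without Co library 5), LMNA from 0.036 (without Co library 2) to 0.19 and LMNB2 from 0.034 (without FoEV library 4) to 0.23. The r of KRT7 and KRT19 ranged from −0.301 to 0.0896, and was 0.0994 with ribosomal RNA share and library total removed, an alternative chosen after seeing the data. Values near 0 also changed sign for KRT5 (−0.19 to 0.36), KRT80 (−0.10 to 0.29, −0.067 after thinning), LMNB1 (−0.041 to 0.027) and SP1 (−0.075 to 0.058, 0.0036 after thinning) in FoEV vs. Co. The cause of these changes was not tested.

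No source says that a replicate number marks a shared culture. The fresh and frozen oEVs came from the same oviducts, but which FeEV and FoEV pools shared vesicles is not stated. FoEV vs. FeEV was fitted without that link. The libraries were not treated as paired because not every pair of the same number deviated together. This rule is strict and does not exclude a shared batch. Ribosomal RNA shares were close between treatments for description numbers 6 (27.98% in Co, 28.22% in FoEV) and 7 (22.82% in FeEV, 22.54% in FoEV). They were also close for numbers 2 and 4, and less so for 5. For number 3 they differed (25.98% in FeEV, 15.88% in FoEV). Whether description numbers mark a batch was not tested, so calls that changed under a block stay uncertain. For title numbers, r was over 0.1 in 4 of 5 pairs of each comparison (mean r 0.0985 to 0.249 for the same number, −0.0628 to −0.0242 for other numbers), and 9 of 30 cases correlated best with their own number. For description numbers it was over 0.1 in 1 of 3 pairs in FoEV vs. Co, 3 of 3 in FeEV vs. Co and 2 of 4 in FoEV vs. FeEV. As a replicate block, title numbers gave 57 called genes in FoEV vs. Co and description numbers 12, with 1 in FoEV vs. FeEV for the latter. With the title block, r was 0.633 for KRT8 with KRT18, 0.473 for KRT8 with KRT19, 0.434 for KRT18 with KRT19 (adjusted permutation p = 0.182 to 0.234) and 0.521 for KRT7 with KRT19. Under the title block KRT5 had −0.021, and under the description block KRT80 had −0.0020 and SP1 0.060 in FoEV vs. Co. Under the description block the unadjusted p of KRT8 in FoEV vs. Co (log2 fold change 0.23), of KRT18 in FoEV vs. FeEV (0.24) and of KRT7 in FeEV vs. Co (−0.25) was above 0.05.

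The spread between pools was widest for KRT19, and KRT7 had the fewest counts.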
